A study of Homo sapiens with 6 samples.

Results

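The multidomain members of the BCL2 family were described in EndoC-βH1 cells: the survival genes MCL1, BCL2L1, BCL2L2, BCL2 and BCL2A1, and the pore-forming genes BAX and BAK1 with their relative BOK. They were taken by symbol from the authors' deposited tables, which gave 8 loci of 61695 counted loci and 42 of 274669 listed transcripts. EndoC-βH1 is a human pancreatic beta cell line made from fetal pancreas by expression of a viral T antigen, so all libraries come from 1 immortalised line. Tested cells were kept for 24 h with a cocktail of IL-17 at 100 ng/ml, IFN-γ at 50 ng/ml, TNF-α at 10 ng/ml and IL-1β at 5 ng/ml (3 libraries), and control cells had no cytokine (3 libraries). Both groups grew in serum-free medium with 11 mM glucose. The labels call the control libraries "before" exposure while the protocol describes untreated cells kept for the same time, so cytokine and time in culture cannot be told apart from these sources.

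BCL2 family proteins set the threshold for apoptosis at the outer mitochondrial membrane. BAX and BAK1 form pores that release cytochrome c, the survival proteins bind and hold them, and a group of BH3-only proteins relieves that hold or activates the pore formers directly. In beta cells this balance is a known point at which inflammatory cytokines act. MCL1 is a short-lived protein whose level follows its synthesis, and BCL2L1 encodes Bcl-xL, a major survival protein of islets.

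The tables held group values and 1 comparison per feature, so the value of each library cannot be shown. Counts are means of normalized counts (reads divided by a size factor) over the 3 libraries of a group, worked out from the deposited overall mean and fold change. The spread between libraries is given through the deposited standard error (SE) of the log2 fold change and, where a level needs an error, through the relative SD that this SE implies for libraries of a group. Both rest on the authors' fit and are not a spread measured on the values of libraries. Summed over all loci of the deposited count tables, a library averaged 40881975 normalized counts. The labels do not tell separate cultures from repeats of the same culture, and p-values here describe library-to-library spread that could be technical. In bulk RNA, fewer cells of a type and less RNA per cell cannot be told apart.

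The beta cell markers were present: the deposited table of FPKM (fragments scaled to transcript length and library size) gave PDX1 146 FPKM in cytokine cells and 145 FPKM in control cells, and the 8 markers with a value summed to 628 and 787 FPKM. INS and CHGA are listed at 0 with a status for too much data. The locus counted with INS had a mean of 47336 normalized counts in the deposited count table. It also carries IGF2, H19 and other symbols, so that count is not one of INS alone. Leukocyte markers, of interest because MCL1 and BCL2A1 are abundant in those cells, summed to 1.43 FPKM in cytokine cells and 1.45 FPKM in control cells over 7 genes in the deposited table. Most of that sum was CD14, at 1.13 FPKM in cytokine cells and 1.29 FPKM in control cells, and CD3E was at 0 in both. Endothelial markers summed to 0.0313 and 0.00487 FPKM, fibroblast markers to 7.63 and 3.41 FPKM (nearly all COL1A1), acinar markers to 25.5 and 33.7 FPKM (all CPA1) and ductal markers to 168 and 140 FPKM in cytokine and control cells of the deposited table. Most of the ductal sum was MUC1, at 105.8 and 90.6 FPKM, and the MUC1 locus of the count table also carries KRTCAP2. KRT19 held 62.0 FPKM in cytokine cells and 49.4 FPKM in control cells. Its locus carries no other symbol and was called higher in the count table. Of the 10 beta cell markers 2 were called higher and 6 lower in the count table. The beta cell, fibroblast, acinar and ductal sums moved with the groups, and their part in the results below was not tested.

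Of the 8 members, 7 had an adjusted p in the authors' deposited count table, and 4 of them were higher and 1 was lower in cytokine cells at an adjusted p under 0.05. MCL1 rose by 112%, BAK1 by 38.7%, the locus of BCL2L2 by 23.2% and BCL2L1 by 10.6%, and BCL2, at a low level, fell by 32.4%. BAX and BOK did not pass the threshold. Over all 30206 loci tested by the authors, 37.7% were called, 18% higher and 19.7% lower, and among the 7868 loci with a mean of at least 1000 normalized counts 78.2% were called. Of the members, 5 lie in that abundant class, and 4 of these were called, a share close to that of all abundant loci. The median log2 fold change of the 7 members was 0.15 in the deposited table, beside 0.05 over all tested loci and -0.06 over the abundant ones. In the authors' deposited Cuffdiff gene table, 3 members were higher and none was lower of 7 tested, where 35.7% of 21865 loci were called. Cuffdiff was run on the same libraries and is no independent check.

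**Figure D1:**
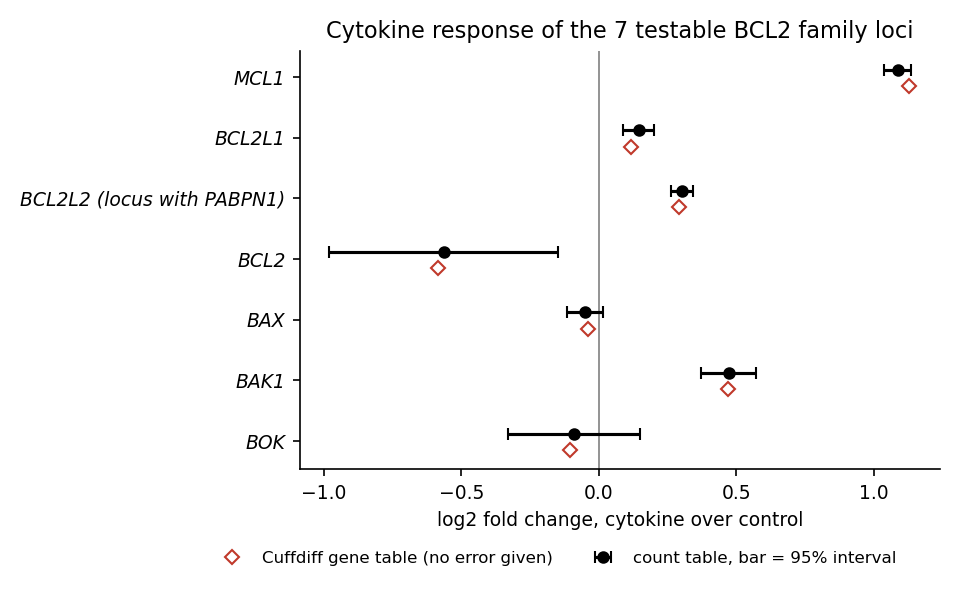
Log2 fold change (cytokine over control, horizontal axis) of the 7 members with an adjusted p. Black points are the deposited count table with bars of 95% intervals, and open diamonds are the deposited Cuffdiff values; MCL1 stands at 1.09, BCL2 at -0.56 with the widest bar, and the bars of BAX and BOK cross 0.

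MCL1 (chromosome 1, 150560895 to 150579738, minus strand, GENCODE release 44 on hg38), the survival protein with the fastest turnover of the family, had a mean of 17579.9 normalized counts in cytokine cells and 8276 in control cells of the authors' deposited table. The log2 fold change was 1.09 ± 0.02 (SE), a rise of 112% with a 95% interval of 106% to 119.6%, and the deposited adjusted p was listed as 0. The spread between libraries of a group that this SE implies was 2.07%, which was not measured on the libraries. The log2 fold change was many times its SE. Of the abundant loci, 4.37% had a log2 fold change at least as high in the deposited table. The deposited Cuffdiff table gave 107.7 FPKM in cytokine cells and 49.2 FPKM in control cells (log2 1.13, q = 0.000232). The locus also carried the symbol ADAMTSL4-AS1, and the 3 transcripts listed under it stayed at or under 0.0769 FPKM in both groups of the deposited isoform table.

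MCL1 is spliced into a survival form and shorter forms, and the results turned on which one changed. The long form MCL1-202 has 3 exons and a reading frame of 350 codons. MCL1-201 skips the middle exon of 248 bases, which leaves 271 codons and is known to give a protein that promotes death. The bases around the junction tell them apart, with the sequence up to the junction in lower case and the exon that follows in capitals, from the GENCODE release 44 transcripts (chromosome 1, minus strand).
MCL1-202, exon 1 to exon 2: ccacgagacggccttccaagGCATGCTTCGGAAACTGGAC
MCL1-201, exon 1 to exon 3 of the long form: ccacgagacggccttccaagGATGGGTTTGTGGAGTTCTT
The long form rose: MCL1-202 had 101.4 FPKM in cytokine cells and 45.8 FPKM in control cells in the authors' deposited isoform table (log2 1.15, q = 0.000833). The exon-skipped MCL1-201 had 1.63 FPKM in cytokine cells and 0.824 FPKM in control cells (log2 0.98, q = 0.815), a difference in the same direction that missed the threshold. MCL1-205, which lacks part of the first exon and has 197 codons, had 1.08 and 1.03 FPKM (q = 0.978). The long form held 97.0% of the named MCL1 FPKM in cytokine cells and 95.6% in control cells, and MCL1-201 held 1.56% and 1.72%, in the deposited table. These shares have no error of their own, and their difference was not tested.

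BCL2L1 (chromosome 20, 31664452 to 31723989, minus strand) had a mean of 5574 normalized counts in cytokine cells and 5038 in control cells of the authors' deposited table. The log2 fold change of 0.15 ± 0.03 (SE), a rise of 10.6% with a 95% interval of 6.36% to 15.1%, passed the threshold (deposited adjusted p = 2.21e-06), while 28.0% of abundant loci stood at least as high. In the deposited Cuffdiff gene table BCL2L1 had 102.7 FPKM in cytokine cells and 94.6 FPKM in control cells, and that difference was not past the threshold (log2 0.12, q = 0.170). ABALON, a noncoding gene on the opposite strand inside BCL2L1, had a locus of its own with a mean of 74.5 normalized counts in the deposited table, with a directional library kit per the labels but no stated strand setting for the counting.

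Bcl-xL and the death-promoting Bcl-xS come from alternative donor sites of the same exon. BCL2L1-201, with 233 codons, uses the whole exon of 694 bases, and BCL2L1-202, with 170 codons, ends it early at 505 bases. Both junctions enter the same last exon (capitals), read on the minus strand of chromosome 20 from the GENCODE release 44 transcripts.
BCL2L1-201, Bcl-xL junction: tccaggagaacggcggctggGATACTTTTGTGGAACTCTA
BCL2L1-202, Bcl-xS junction: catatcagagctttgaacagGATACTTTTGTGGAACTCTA
Among named transcripts the Bcl-xL frame dominated in both groups. The 6 transcripts of 233 codons summed to 75.9 FPKM in cytokine cells and 67.4 FPKM in control cells, or 92.2% and 90.7% of the named BCL2L1 FPKM in the authors' deposited isoform table. The 2 transcripts of 170 codons summed to 1.46 FPKM in cytokine cells and 1.05 FPKM in control cells, or 1.77% and 1.42%, and the tested one, BCL2L1-202, had q = 0.928. BCL2L1-208, of 307 codons, had 4.98 FPKM in cytokine cells and 5.87 FPKM in control cells, or 6.05% and 7.89% (q = 0.936). Of 7 tested BCL2L1 transcripts, 1 passed the threshold. BCL2L1-203 rose to 8.99 FPKM in cytokine cells, against 3.56 FPKM in control cells, in the deposited table (log2 1.33, q = 0.00808). It carries the same 233 codons and the same Bcl-xL junction in 2 exons, but its annotated 5′ end lies at 31722597, within the first intron of BCL2L1-201, whose 5′ end lies at 31722868. The main transcript BCL2L1-201 had 57.4 FPKM in cytokine cells and 53.4 FPKM in control cells (log2 0.10, q = 0.618). The share of BCL2L1-203 was 10.9% in cytokine cells and 4.80% in control cells of the deposited table. A test of one transcript against the other was not run, since the table holds no values per library. Of 2 assembled transcripts of the locus without a gene name, the larger held 16.0 FPKM in cytokine cells and 16.3 FPKM in control cells.

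**Figure D2:**
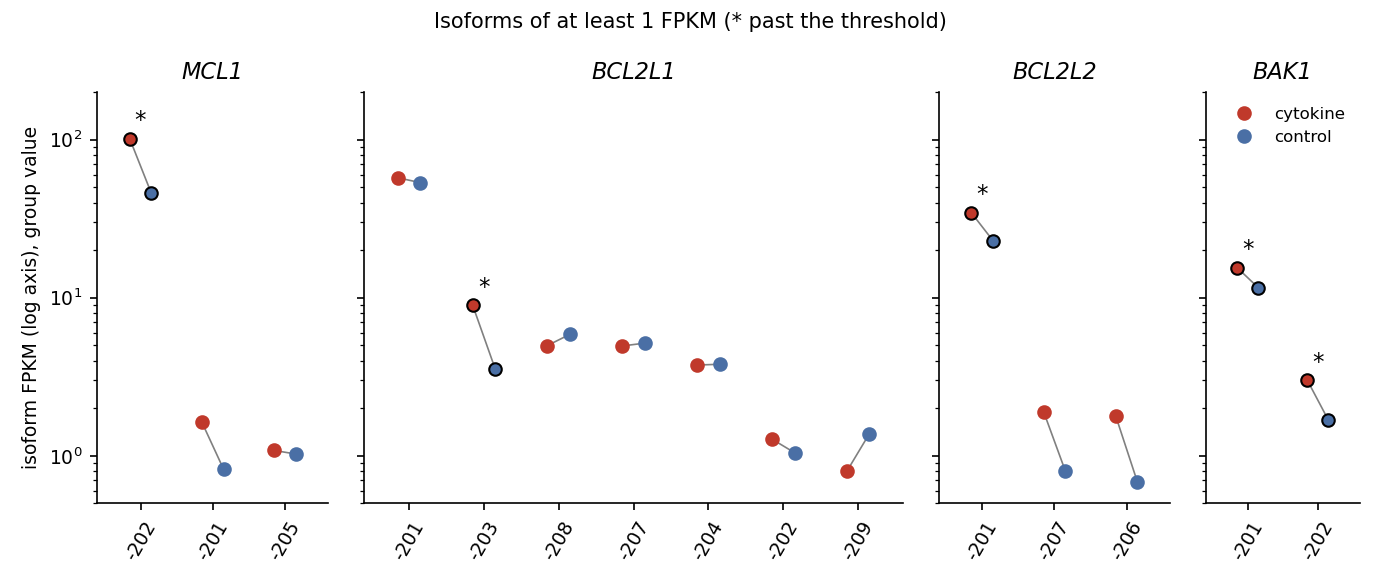
FPKM (log axis) of the named isoforms with at least 1 FPKM in a group, cytokine cells left and control cells right of each pair joined by a line, for MCL1, BCL2L1, BCL2L2 and BAK1. Stars mark the 5 isoforms past the deposited threshold: MCL1-202, BCL2L1-203, BCL2L2-201, BAK1-201 and BAK1-202.

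BCL2L2 (chromosome 14, 23298790 to 23311751, plus strand) encodes the survival protein BCL-w and was counted in a single locus with its neighbour PABPN1, a poly(A)-binding protein, and the readthrough gene BCL2L2-PABPN1. That locus had a mean of 16435 normalized counts in cytokine cells and 13338 in control cells, a log2 fold change of 0.30 ± 0.02 (SE, adjusted p = 3.30e-48) in the authors' deposited table. A value of the locus belongs to all 3 genes. The deposited isoform table lists named transcripts of each, beside assembled ones without a gene name. The assembled ones stood at or under 6.85 FPKM, moved in both directions and did not pass the threshold. The main transcript BCL2L2-201, of 193 codons, rose to 34.4 FPKM in cytokine cells, against 22.9 FPKM in control cells (log2 0.59, q = 0.000833). The main PABPN1 transcript, PABPN1-201, had 65.9 FPKM in cytokine cells and 61.7 FPKM in control cells (log2 0.09, q = 0.815) in the deposited table, and none of the PABPN1 transcripts passed the threshold. PABPN1-202 had 26.4 FPKM in cytokine cells and 20.7 FPKM in control cells (q = 0.191). Of the PABPN1 transcripts, only the untested PABPN1-204 was lower in cytokine cells. How the rise of the locus divides among the 3 genes was not tested. The other 4 tested BCL2L2 transcripts were under 2 FPKM in both groups, all at higher values in cytokine cells and none past the threshold. Both readthrough transcripts tested stood under 1 FPKM.

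BCL2 (chromosome 18, 63123346 to 63320128, minus strand), the founding survival gene of the family, was almost silent in this line. Its locus had a mean of 63.8 normalized counts in cytokine cells and 94.3 in control cells of the authors' deposited table. The log2 fold change was -0.56 ± 0.21 (SE), and the fall passed the threshold with an adjusted p of 0.0225. The 95% interval of the log2 fold change ran between -0.98 and -0.15, and the implied spread between libraries was 18.0%. The deposited Cuffdiff table gave 0.358 FPKM in cytokine cells and 0.538 FPKM in control cells (log2 -0.59), which did not pass its threshold (q = 0.0984). Of 4 BCL2 transcripts the deposited table tested 1, BCL2-203, at 0.118 FPKM in cytokine cells and 0.255 FPKM in control cells (q = 0.532).

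BCL2A1 (chromosome 15, 79960892 to 79971196, minus strand), a survival gene known as an NF-κB target in blood cells, was at the limit of detection. All 6 libraries together held 6.04 normalized counts per the deposited count table, with fitted group means of 1.85 in cytokine cells and 0.161 in control cells. The control mean is below 1 normalized count per library, the floor that 3 reads over a group set, so no fold change is read from these values. The deposited table gave no adjusted p (unadjusted p = 0.0777), and Cuffdiff listed 0.0775 FPKM in cytokine cells and 0.0213 FPKM in control cells without a test. A cytokine response of BCL2A1 was thus not detectable at this depth. Floors and intervals cover counting error or the deposited SE only.

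Promoter sequences (250 bases before to 50 after the start, RefSeq, GRCh38.p14) were held for 6 members in 7 entries and were searched on both strands for the interferon-gamma activated site, or GAS motif (TTCNNNGAA), a core of the interferon-stimulated response element (GAAANNGAA) and the NF-κB consensus. Of 35116 promoters, 7.66% held the GAS letters, 8.11% the ISRE core and 11.3% the NF-κB consensus. BCL2A1 held 1 GAS match, its first base at -168 from the start site, and 1 ISRE core on the opposite strand, its first base at -132. These do not overlap. The entries of BAK1, BAX, BCL2, BCL2L1 and BOK held none of the 3 in this window. MCL1 and BCL2L2 had no entry, so their promoters were not searched. The BCL2A1 promoter is shown for its matches, in capitals, at chr15:79971147-79971446 on the minus strand.
BCL2A1 promoter: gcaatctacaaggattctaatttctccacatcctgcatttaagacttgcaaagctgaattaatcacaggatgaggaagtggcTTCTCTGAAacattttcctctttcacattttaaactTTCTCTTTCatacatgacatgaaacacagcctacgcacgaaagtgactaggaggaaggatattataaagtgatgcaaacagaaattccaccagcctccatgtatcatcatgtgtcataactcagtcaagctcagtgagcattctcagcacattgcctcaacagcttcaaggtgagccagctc
A match of letters is a description and not a bound site.

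BAK1 was the pore former that changed. BAK1 (chromosome 6, 33572547 to 33580293, minus strand), which sits in the outer mitochondrial membrane already in healthy cells, had a mean of 1706 normalized counts in cytokine cells and 1230.2 in control cells of the authors' deposited table. The log2 fold change was 0.47 ± 0.05 (SE), a rise of 38.7% with a 95% interval of 29.5% to 48.5% (adjusted p = 6.62e-20). Cuffdiff gave 18.5 FPKM in cytokine cells and 13.3 FPKM in control cells in the deposited table (log2 0.47, q = 0.000232). Of the abundant loci, 11.6% stood at least as high. The processed pseudogene BAK1P1 on chromosome 20 had a mean of 35.4 normalized counts and a log2 fold change of 0.11 ± 0.31 (adjusted p = 0.862) in the deposited table, and reads shared between these copies could be split.

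Both tested BAK1 transcripts rose. BAK1-201, with 211 codons, had 15.5 FPKM in cytokine cells and 11.6 FPKM in control cells (log2 0.42, q = 0.000833), and BAK1-202, with 153 codons, had 3.01 and 1.69 FPKM (log2 0.83, q = 0.000833) in the authors' deposited isoform table. BAK1-202 carries an extra exon of 20 bases after exon 4, shown whole in capitals in the second line, where BAK1-201 runs on into its exon 5 (capitals in the first line; chromosome 6, minus strand, GENCODE release 44 transcripts).
BAK1-201, exon 4 to exon 5: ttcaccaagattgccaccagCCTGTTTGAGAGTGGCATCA
BAK1-202, exon 4 to the extra exon: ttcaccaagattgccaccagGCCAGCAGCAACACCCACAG
BAK1-202 held 16.3% of the BAK1 FPKM in cytokine cells and 12.7% in control cells of the deposited table, a difference that was not tested. The reading frame of BAK1-202 ends before its last junction, and what its protein does was not examined.

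BAX (chromosome 19, 48954815 to 48961798, plus strand), the pore former that waits in the cytosol, had the highest FPKM of the members in both groups, though MCL1, BCL2L1 and the BCL2L2 locus had more counts. That FPKM includes intron-retaining transcripts and those annotated for nonsense-mediated decay of the RNA. The main coding transcript BAX-202 stood above MCL1-202 in control cells (78.7 against 45.8 FPKM) but below it in cytokine cells (71.0 against 101.4 FPKM). BAX had a mean of 3709 normalized counts in cytokine cells and 3840.2 in control cells of the authors' deposited table. The log2 fold change was -0.05 ± 0.03 (SE, adjusted p = 0.259), and its 95% interval in percent ran between -7.65% and 0.987%. The sign turned when fold changes were centred on the median of abundant loci (0.0053, adjusted p = 0.940). Cuffdiff gave 121.8 FPKM in cytokine cells and 125.1 FPKM in control cells (q = 0.755), and none of 11 tested BAX transcripts passed the threshold in the deposited isoform table. The main transcript BAX-202, of 192 codons, had 71.0 FPKM in cytokine cells and 78.7 FPKM in control cells (log2 -0.15, q = 0.393), BAX-201 had 13.4 and 12.04 FPKM (q = 0.689), and the intron-retaining BAX-210 had 11.9 and 12.5 FPKM (q = 0.965).

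BOK (chromosome 2, 241551424 to 241574131, plus strand), a relative of BAX and BAK1 kept low through degradation at the endoplasmic reticulum, had a mean of 252 normalized counts in cytokine cells and 268 in control cells of the authors' deposited table. The log2 fold change of -0.09 ± 0.12 (SE) was not past the threshold (adjusted p = 0.661), with a 95% interval between -0.33 and 0.15. The single named transcript BOK-201 had 5.69 FPKM in cytokine cells and 6.33 FPKM in control cells in the deposited table (log2 -0.15, q = 0.178).

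**Figure D3:**
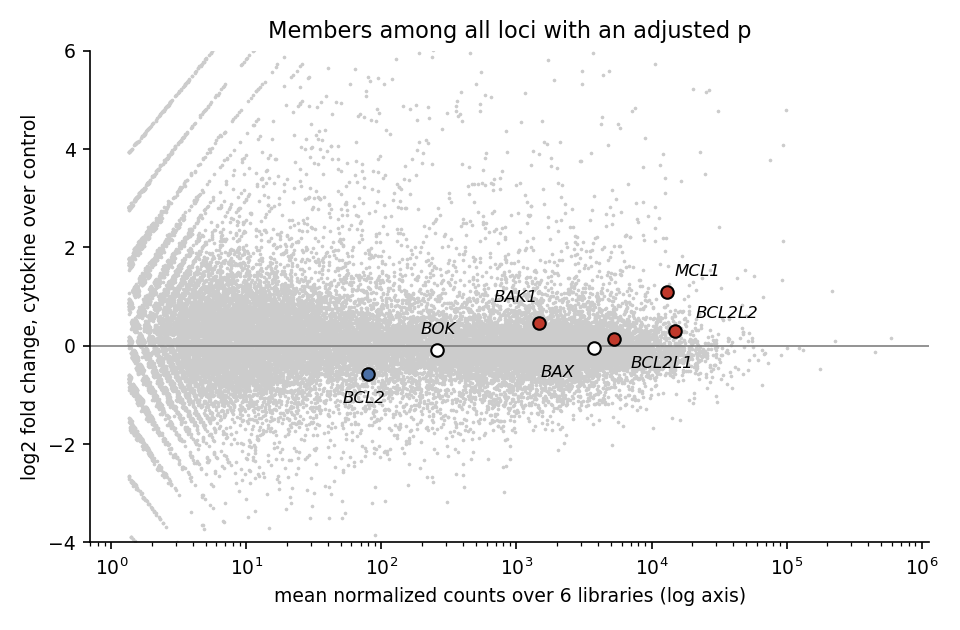
Log2 fold change (cytokine over control) against mean normalized counts (log axis) for the 30206 loci with an adjusted p, in grey, and the 7 members with one. Members called higher are red, the one called lower is blue and those not past the threshold are white; 161 loci lie outside the plotted range of -4 to 6. MCL1 stands apart from the dense band, and the other 6 members lie within it.

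Over all transcripts of the 8 members, 31 of 42 were tested in the authors' deposited isoform table. Of these, 5 were higher, 0 were lower and 26 were not past the threshold of q under 0.05, where 9.87% of all 95649 tested transcripts were called; 6 of the 31 had an unadjusted p under 0.05. The called transcripts belonged to MCL1, BCL2L1, BCL2L2 and BAK1.

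Levels per length put the members in an order that differed between groups. For BCL2L2 the sum of its own transcripts stands in for the shared locus. The BAX value includes intron-retaining transcripts and those annotated for decay, so its place is not one of coding transcripts alone. In cytokine cells the deposited FPKM ran BAX (121.8), MCL1 (107.7), BCL2L1 (102.7), BCL2L2 (39.4), BAK1 (18.5), BOK (6.98), BCL2 (0.358) and BCL2A1 (0.0775). In control cells it ran BAX (125.1), BCL2L1 (94.6), MCL1 (49.2), BCL2L2 (24.9), BAK1 (13.3), BOK (7.51), BCL2 (0.538) and BCL2A1 (0.0213). MCL1 stood above BCL2L1 in cytokine cells and below it in control cells, and it held 27.1% of the summed FPKM of the 8 members with cytokine and 15.6% in control. The closest neighbours in the order were MCL1 and BCL2L1 in cytokine cells, a gap of 1.49 times their combined implied SD, so their order is the least certain, followed by BCL2 and BCL2A1 in cytokine cells at 1.92 times. Every other gap between neighbours was at least 3.47 times that SD. The implied SD covers the spread between libraries as the SE implies it, and not errors in assigning reads to genes or in effective length. For BCL2L2 it was taken from the locus shared by 3 genes, so the gaps and the quotient that involve BCL2L2 rest on a spread that is not its own.

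**Figure D4:**
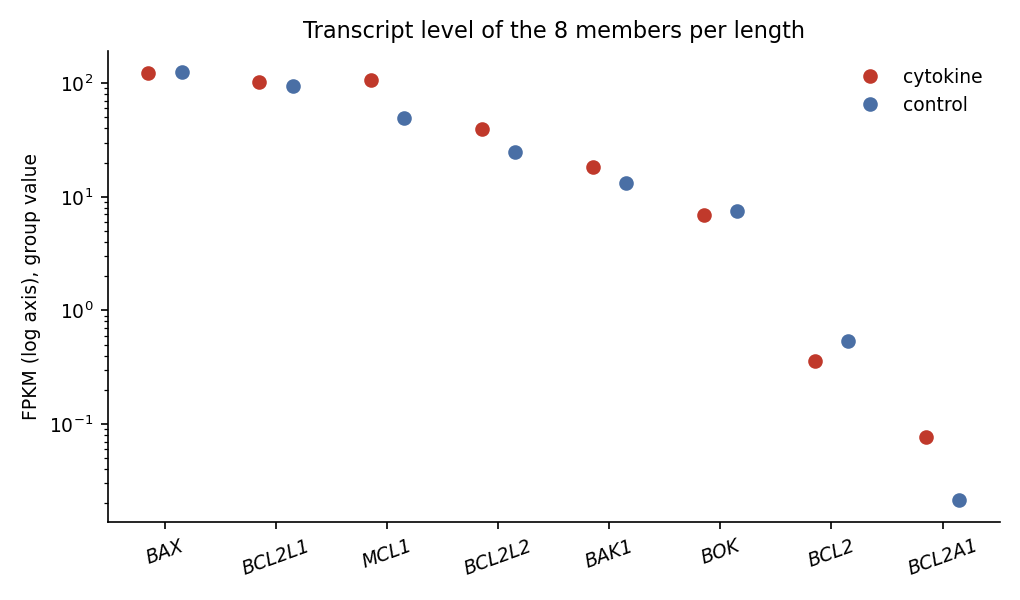
FPKM of the 8 members (log axis) in cytokine cells (red, left) and control cells (blue, right) as deposited, with BCL2L2 as the sum of its own transcripts. BAX, BCL2L1 and MCL1 lie highest, and MCL1 shows the largest distance between groups among members over 1 FPKM.

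The summed FPKM of the 5 survival members was 250.2 in cytokine cells and 169 in control cells, and that of BAX, BAK1 and BOK was 147 and 146. The quotient of survival over pore-forming transcripts was 1.70 ± 0.05 in cytokine cells and 1.16 ± 0.03 in control cells (implied SD), worked out from the authors' deposited tables without a test. That SD carries the SE of the counts over to FPKM and treats the genes as independent. It is not a spread of the quotient measured over the 3 libraries of each group. Most of the difference came with MCL1: without it the quotient was 0.968 in cytokine cells and 0.823 in control cells. The BAX part of the sums includes intron-retaining transcripts and those annotated for decay. Transcript sums say nothing of protein amounts.

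Other genes of the pathway were read from 6 lists, and 13 of their 45 tested genes were higher and 20 lower in the authors' deposited table, beside the 18% and 19.7% over all loci. Most list genes are abundant: of the 32 with a mean of at least 1000 normalized counts, 28.1% were higher and 43.8% lower, close to the 32.9% and 45.3% of all abundant loci. Among 8 BH3-only genes, which antagonise the survival proteins or activate the pore formers, 3 rose and 4 fell, with a median log2 fold change of -0.04, and Cuffdiff called 2 higher and 2 lower. BBC3, which encodes PUMA, rose by 3.80 ± 0.28 to a mean of 177 normalized counts, against 12.7 in control cells. PMAIP1, which encodes NOXA, a selective partner of MCL1, rose by 1.40 ± 0.03 to 7173 normalized counts, against 2724 in control cells of the deposited table. BIK and BMF fell by 0.73 and 0.43, and BAD (0.13 ± 0.10) was not past the threshold. In FPKM, PMAIP1 stood at 92.4 in cytokine cells and 34.0 in control cells of the deposited table, beside the 107.7 and 49.2 of MCL1.

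Of 8 genes that control MCL1 protein turnover, 2 rose and 5 fell, and the median log2 fold change was -0.11, per the authors' deposited table. Cuffdiff called 1 of them higher, FBXW7, and 1 lower, USP13, so the other 5 calls were lost there. FBXW7, an adaptor of a ubiquitin ligase for MCL1, rose by 0.47 ± 0.05 and the kinase gene GSK3A, in a shared locus, by 0.08 ± 0.03. The deubiquitinase USP13 fell by 0.43 ± 0.05 and the ligase MARCHF5 by 0.20 ± 0.04. The locus of the deubiquitinase USP9X, shared with another symbol and highest of the list by mean count but not by FPKM, stood at -0.08 ± 0.02, and BTRC (-0.09 ± 0.04) missed the threshold, per the deposited table.

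Of 7 genes listed as partners of BAX and BAK1 at the outer membrane, 1 rose and 4 fell, and the median was -0.22, per the authors' deposited table (1 higher and 3 lower by Cuffdiff). The channel gene VDAC3 fell by 0.45 ± 0.03 and MTCH2, a receptor for truncated BID, by 0.33 ± 0.03, while SH3GLB1, a BAX-binding protein, rose by 0.12 ± 0.03. VDAC2, the channel that holds BAK1, stood at -0.07 ± 0.04 and TMBIM6 at -0.04 ± 0.02, neither past the threshold. TMBIM6 is named BAX inhibitor 1 but is not itself a protein of the outer membrane. Of 5 partners at the endoplasmic reticulum, 3 rose and 2 fell (2 higher and 1 lower by Cuffdiff): the calcium channel genes ITPR3 and ITPR1 rose by 0.25 and 0.20, and ITPR2 fell by 0.40 in the deposited table.

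Downstream of the membrane, 3 of 10 genes rose and 4 fell, with a median of -0.01, and Cuffdiff called 3 higher and 2 lower. XIAP, an inhibitor of apoptosis with the highest mean count in this group, rose by 0.71 ± 0.03 and had 6384 normalized counts in cytokine cells and 3916 in control cells of the authors' deposited table. APAF1, the scaffold of the apoptosome, fell by 0.60 ± 0.06 and ENDOG by 0.33 ± 0.10, a call that Cuffdiff did not make (q = 0.180). Cytochrome c (CYCS, -0.01 ± 0.03), DIABLO in a shared locus (0.08 ± 0.04) and AIFM1 (-0.01 ± 0.04) missed the threshold, per the deposited table. Of 7 other BCL2-related genes, 1 rose, BCL2L14 at a mean of 14.8 normalized counts (chosen after its values were seen), and 1 fell, BNIP3L by 0.36 ± 0.04. In the deposited Cuffdiff table BNIP3L stood at -0.09 (q = 0.640), so its call was lost, and 2 genes of this list were higher, BCL2L14 and BNIP3 (log2 0.15, q = 0.0482), and 0 lower. BCL2L10, BCL2L12, BCL2L13, BCL2L15 and BNIP3 had deposited log2 fold changes between -0.90 and 0.07 and did not pass the threshold of the count table. BCL2L10 was counted in a locus shared with GNB5, so its value belongs to both genes.

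**Figure D5:**
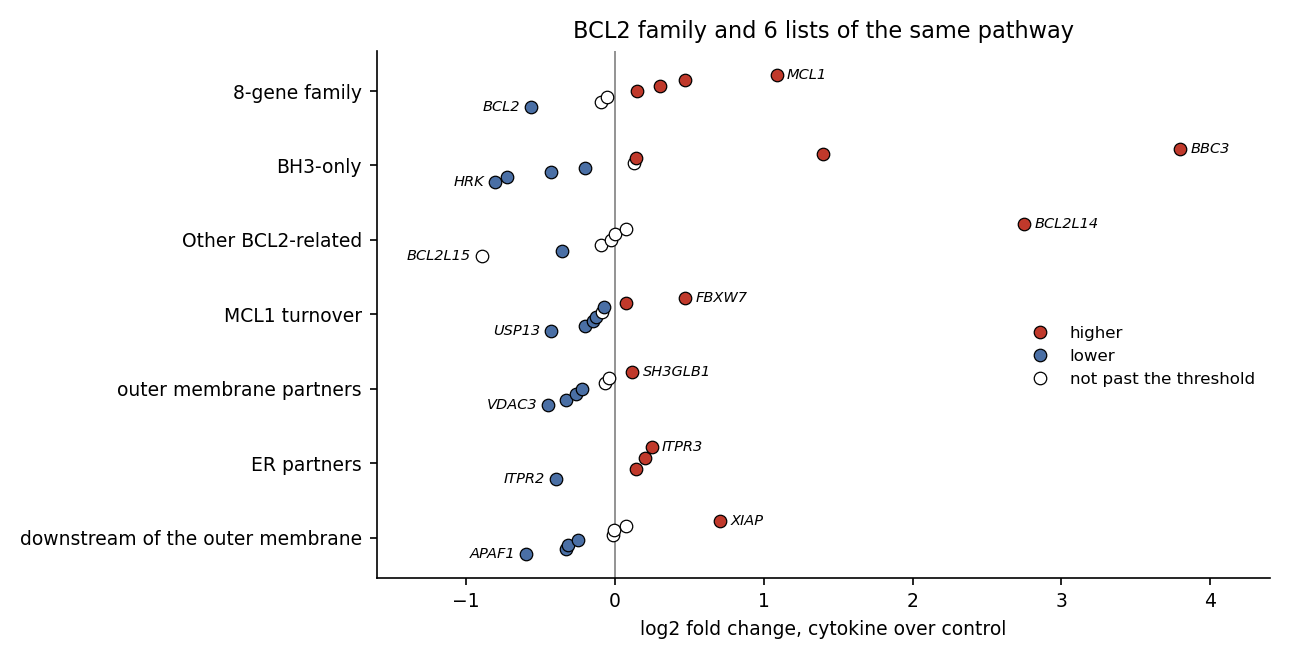
Log2 fold change (cytokine over control) of the 7 members with an adjusted p and of 42 genes of the 6 lists, 1 point per gene, with the lowest and highest plotted gene of each row named. Red points were called higher, blue lower and white not past the threshold; the rows spread on both sides of 0, with BBC3, BCL2L14 and PMAIP1 above the 1.09 of MCL1.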

How the data were processed

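Poly(A) RNA of 6 libraries was sequenced. Per the submitters' processing notes reads were handled on build hg38 with STAR 2.5.2b, DESeq, Cuffdiff 2.2.1, StringTie, bcl2fastq and FastQC 0.10.1, with no role given. How reads were counted, on which strand and with which annotation is not stated. Per the file headers, the deposited count tables give a signal (the mean of normalized counts), log2 fold changes with SE, a score (fold change over SE) and p-values, and the deposited Cuffdiff tables give FPKM per group, log2 fold changes, a test score, p-values and q-values. The second count table has no header; its columns follow the first, and its loci without a gene name hold 1.34% of normalized counts.

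Members were matched by exact symbol. No file used here held counts per library, so the authors' DESeq and Cuffdiff calls, adjusted over all loci or transcripts, were used at 0.05, and the planned edgeR fit was not run. Deposited adjusted p-values were recomputed by Benjamini-Hochberg over 30206 loci within 1.53e-15. Group means used the deposited mean and fold change; the implied relative SD is the SE (natural log) times the root of 3 over 2. All 8 genes of GENCODE release 44 lay inside the deposited loci. Older symbols were matched through RefSeq. Re-centring was tested on simulated data with few changed loci, balanced in direction. Most abundant loci here were called, more of them lower than higher, and that setting was not simulated. Members, lists and the rule for named genes (all members; in each list the 2 largest rises and falls of at least 50 counts, the most abundant gene, and genes not past the threshold where 5 or fewer) were chosen with earlier results of these data known. Of the list genes, 3 enter the counts but are not reported by name here. Scripts ran under Python 3.11.15 with matplotlib 3.10.9, scipy 1.17.1, pandas 2.3.3 and numpy 2.4.6.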

Additional observations from a re-analysis of the deposited data

How the results depend on the processing

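The rise of MCL1, BAK1 and the BCL2L2 locus kept its direction and its call under every alternative that could test them; neither MCL1 nor BCL2L2 is left among loci of 1 symbol, where the members called higher were 2 by construction. The Cuffdiff gene test called 3 members higher and 0 lower, with BCL2L1 at 0.12 (q = 0.170) and BCL2 at -0.59 (q = 0.0984), and 9 genes of the 6 lists lower against 20; the cause was not tested. At a threshold of 0.01 the call of BCL2 was lost, leaving 0 members lower. Re-centring on abundant loci turned BAX to 0.0053. The other 37 of 41 member fold changes under alternatives kept direction and call. Only re-centring and the Cuffdiff test gave a new fold change. Under the other alternatives the direction was fixed in advance and only the call could change. BCL2A1, adjusted without a filter on low counts, is among the 37, though no fold change is read for it. The quotient of survival over pore-forming FPKM was 1.61 in cytokine cells and 1.06 in control cells from transcript sums, and 0.968 and 0.823 without MCL1. In alternatives added after seeing the data it was 2.69 and 2.02 with the whole BCL2L2 locus and 1.43 and 0.989 without BCL2L2. It was higher in cytokine cells under each of these. The isoform count did not change at 0.01 or among transcripts of at least 1 FPKM, also added later.

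No paired analysis was possible because the tables hold no values per library; for the same reason leaving out a replicate was not run. Depth limits BCL2A1 and BCL2, and the transcripts under about 2 FPKM.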
